A study of Mus musculus with 12 samples.

Results

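The genes for 6 abundant or structural noncoding RNAs, Rn45s, Rpph1, Rmrp, Terc, Malat1 and Neat1, were followed across 12 RNA-seq libraries from mouse embryonic stem (mES) cells. They are the 6 of 7 listed symbols that were among the 24421 genes of the count table, and the remaining symbol, Rn7sk, was not analysed here. The cells were of strain B6 (C57BL/6J in the study's methods), grown in 2i+LIF medium, and carried the knock-in "Brg1 dTag", through which the small molecule dTAG13 sends BRG1, the ATPase subunit of the SWI/SNF chromatin remodeling complexes, to the proteasome. They were exposed for 24 h to 0.3, 1, 3, 10 or 100 nM dTAG13, or to none (0 nM), with 2 libraries per condition. All groups, controls included, carried the tagged allele, and the line grew from a single-cell colony, so no second clone and no untagged cells stand beside it. The study describes its RNA-seq values as coming from 2 independent experiments, which are taken here as the 2 libraries of a condition, although the labels do not say which cultures they came from.

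The values are read-pair counts. They summed to between 4663484 and 6375582 per library, with a median of 5956670. Up to 3 nM, 17592 to 18603 genes had a count in a library. This number was 19245 and 19420 in the 10 nM libraries and reached 20608 and 20665 at the top dose. The 7 embryonic stem cell markers were all tested, with a summed level of 2884 to 3501 counts per 1000000 (CPM), whereas 0 of 7 fibroblast markers were abundant enough to test (2.53 to 13.2 CPM summed, 4.28 to 4.37 at 0 nM and 9.80 to 13.2 at 100 nM). Trophoblast markers summed to 62.9 to 67.5 CPM at 0 nM and 76.4 to 76.7 at 100 nM, and extraembryonic endoderm markers to 304 to 348 and 146 to 147 CPM. Of this last list 2 of 7 genes were abundant enough to test, and they moved in opposite directions at 100 nM, Sparc by a log2 fold change of -1.74 (adjusted p = 1.1e-14 from edgeR) and Lamb1 by 0.41 (adjusted p = 0.0290 from edgeR). The other sums also hide opposite changes at 100 nM. Of the 7 embryonic stem cell markers 2 rose and 3 fell. Of 5 trophoblast markers tested 3 rose and 1 fell, among them Cdx2 by 3.10 and Krt8 by -2.02 (adjusted p = 2.4e-06 and 7.1e-07 from edgeR). Of all tested genes 10.0% rose and 13.3% fell. None of these marker genes was at 0 in every library. Smarca4, the gene of BRG1, had 2128 to 2777 counts, which does not test the degradation of its protein. In bulk RNA, fewer cells of a type and less RNA per cell cannot be told apart.

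These RNAs act as RNA and are not translated. Rn45s is the precursor that RNA polymerase I makes and the cell cuts into the ribosomal RNAs. Rpph1 is the catalytic RNA of RNase P, which trims the 5′ ends of tRNAs, and Rmrp is the RNA of its relative RNase MRP, which takes part in cutting the ribosomal precursor; both are made by RNA polymerase III. Terc is the RNA of telomerase and carries the template for telomere repeats. Malat1 is held in nuclear speckles, and the long form of Neat1 is the scaffold of paraspeckles. RNase P also makes the 3′ ends of these 2 long RNAs, in front of a tRNA-like stretch.

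The sequences below were read from GENCODE transcripts on GRCm38, the build called mm10 in the files, and all 5 lie on the minus strand. The start of the counted interval of Terc (chr3:96414714-96414833) holds the telomere template CTAACCC from position 3, in capitals, and is shown because Terc is the RNA whose share rose along the dose order. The same 7 letters, on the transcript strand, stood in the first 120 bases of 0.373% of 137364 transcripts.
Terc: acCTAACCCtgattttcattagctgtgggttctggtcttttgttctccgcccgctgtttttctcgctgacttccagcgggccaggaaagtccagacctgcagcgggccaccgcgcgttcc

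The first 300 of 319 bases of Rpph1 (chr14:50807468-50807767) and the counted interval of Rmrp (chr4:43492785-43493059) are shown because reads must tell these related RNAs apart. Their longest shared run was 9 bases, in capitals. Both are rich in G and C, at 67.0% and 63.6%.
Rpph1: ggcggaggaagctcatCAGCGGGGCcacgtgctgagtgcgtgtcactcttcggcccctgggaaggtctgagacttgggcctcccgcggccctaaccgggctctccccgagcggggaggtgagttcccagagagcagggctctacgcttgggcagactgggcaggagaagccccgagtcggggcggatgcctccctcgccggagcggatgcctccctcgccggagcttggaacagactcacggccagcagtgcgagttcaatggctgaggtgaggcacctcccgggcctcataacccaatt
Rmrp: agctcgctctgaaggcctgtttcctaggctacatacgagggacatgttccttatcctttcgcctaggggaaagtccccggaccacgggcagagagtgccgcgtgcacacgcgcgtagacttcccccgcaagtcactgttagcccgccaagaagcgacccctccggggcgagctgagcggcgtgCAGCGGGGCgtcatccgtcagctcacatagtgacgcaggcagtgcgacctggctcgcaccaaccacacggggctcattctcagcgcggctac

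The ends that RNase P is known to make are shown for Malat1 (chr19:5795982-5796081) and Neat1 (chr19:5824708-5824807), with the A-rich tract in capitals. The letters AAAAAGCAAA occurred 1 time in each transcript, on its own strand. In Malat1 a further 292 bases of the transcript followed the tract, and in Neat1 none did. The last 100 bases of 0.142% of 139316 transcripts held these letters. This window takes in the tract of Neat1 but not that of Malat1.
Malat1: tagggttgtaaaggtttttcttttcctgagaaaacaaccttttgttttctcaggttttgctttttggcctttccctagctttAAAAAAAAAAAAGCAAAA
Neat1: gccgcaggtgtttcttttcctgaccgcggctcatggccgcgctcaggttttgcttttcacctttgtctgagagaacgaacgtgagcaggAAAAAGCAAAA

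On mm10 the counted intervals were chr17:39842997-39848829 for Rn45s (plus strand), chr14:50807447-50807771 for Rpph1, chr4:43492785-43493059 for Rmrp, chr3:96414437-96414833 for Terc, chr19:5795690-5802671 for Malat1 and chr19:5824710-5845480 for Neat1, each exonic and the last 5 on the minus strand. Malat1 and Neat1 are neighbors, 22039 bases apart. No other gene of the count table overlapped any of the 6. Counting did not use the strand, so antisense RNA over an interval falls on the gene. In GENCODE, Ccnb1ip1 covers 286 bases of Rpph1 on the same strand and Ccdc107 covers 160 bases of Rmrp on the other. Those genes are small beside the 2 RNAs, with 11 to 22 counts for Ccnb1ip1 and 20 to 45 for Ccdc107, and are named here with their values already known. The rRNA gene CT010467.1 covers 2475 bases of Rn45s on the other strand. The lincRNA genes Gm26917 (3329 bases, same strand), Gm42418 (1831 bases, same strand) and AY036118 (923 bases, other strand) also lie over it. Counts on this interval do not separate the precursor from the ribosomal RNAs cut from it. Ribosomal DNA exists in many near-identical copies and read pairs placed at several sites were left out, so the level of Rn45s is uncertain.

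The 6 RNAs together took 15.2% to 23.1% of all counts in a library, with a median of 19.8%. Rn45s, Rpph1 and Rmrp were the 3 genes with the most counts in the table, and Malat1 was the sixth. Without Rn45s, the other members took 3.24% to 4.71%. Terc and Neat1 ranked 1557 and 1525 by mean count. Per length, the order was led by Rpph1 at 64083 to 104919 RPKM (read pairs per kilobase and per 1000000 counts) over the 12 libraries. Rn45s at 16920 to 34894 and Rmrp at 22293 to 26571 RPKM overlapped and changed places between libraries. Malat1 at 493 to 616, Terc at 209 to 365 and Neat1 at 4.83 to 7.07 RPKM followed, in that order in all 12 libraries.

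The share of Rn45s varied from library to library, with no trend over the doses that could be detected. The untreated libraries held 17.8% and 15.2% of their counts in Rn45s. With 0.3 nM the shares were 15.9% and 16.1%, with 1 nM 14.7% and 19.4%, and with 3 nM 10.5% and 19.0%. With 10 nM they were 17.7% and 12.1%, and with 100 nM 15.3% and 16.7%. The lowest shares were those of 3 nM replicate 1 and 10 nM replicate 2, whose partners from the same dose stood at 19.0% and 17.7%. The values of every dose overlapped those of 0 nM. Replicate 1 was the higher library in 2 of 6 conditions. Counting error was far smaller than this spread, with a 95% Wilson interval of at most 0.0318 percentage points to either side. Without molecular identifiers on the reads, such intervals hold for the error of counting and nothing else.

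**Figure D1:**
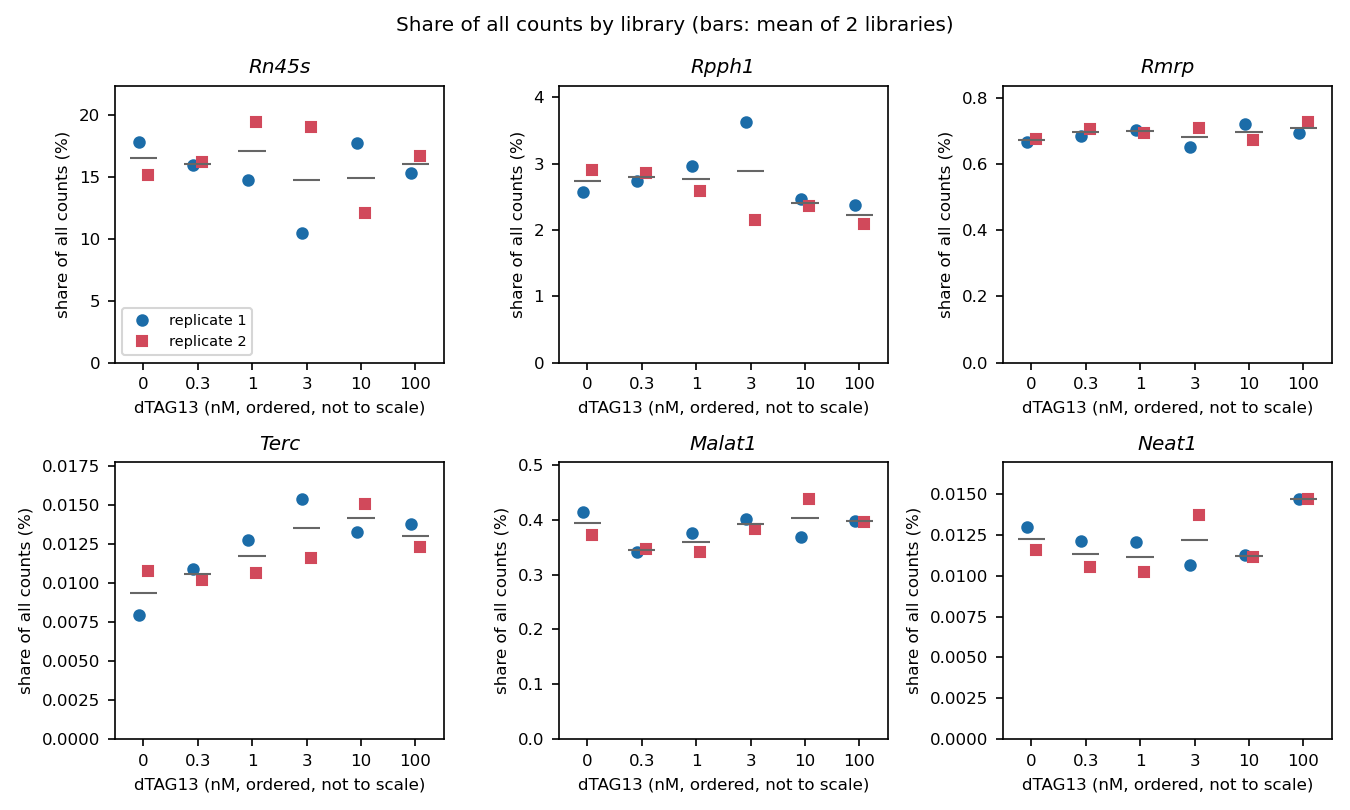
Share of all counts (percent, y axis from 0) against dTAG13 dose in order (x axis, not to scale) for each of the 6 RNAs; circles are replicate 1, squares replicate 2 and bars the mean of 2 libraries. The Rn45s points spread from 10.5% to 19.4% with both extremes at middle doses, whereas all Terc points from 3 nM upward lie above both 0 nM points. How many of all genes separate in this way was not counted.

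The share of Rpph1 was 2.58% and 2.91% without dTAG13. The libraries treated with 0.3 nM had 2.74% and 2.86%, and those treated with 1 nM 2.96% and 2.59%. With 3 nM it was 3.63% in replicate 1, the highest of all libraries, and 2.16% in replicate 2. Treatment with 10 nM gave 2.46% and 2.36%, and with 100 nM 2.37% and 2.09%. At both of the highest doses the 2 libraries thus lay below both 0 nM libraries. How many of all genes separate in this way, 2 libraries against 2, was not counted, here or for the RNAs below. The 3 nM replicate 1 library was thus at the same time lowest in Rn45s and highest in Rpph1.

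The share of Rmrp stayed between 0.652% and 0.726% in all 12 libraries, the narrowest range of the 6 at 1.11-fold from lowest to highest. Without dTAG13 it was 0.665% and 0.676%, and with 100 nM 0.692% and 0.726%. The libraries of 0.3, 1 and 100 nM lay above those of 0 nM, although Rmrp was not called at any of these doses in the edgeR fit below. With 3 nM 1 library lay below and 1 above both of them, and with 10 nM 1 lay between them and 1 above.

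Terc had 484 and 668 counts at 0 nM, which is 79.7 and 108 unscaled CPM, that is, per 1000000 of all counts. Treatment with 0.3 nM gave 109 and 102 unscaled CPM, 1 nM gave 128 and 107, and 3 nM gave 154 and 116. The values reached 133 and 151 unscaled CPM with 10 nM, and 138 and 123 with 100 nM. All libraries of 3, 10 and 100 nM were above both 0 nM libraries, and those of 0.3 and 1 nM overlapped them. This separation, too, was not counted over all genes. The library of 0 nM replicate 1 was the lowest of all. The Wilson interval of a Terc share reached at most 8.92% of the share to either side, so counting error is not negligible for this RNA.

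The share of Malat1 was 0.414% and 0.373% without dTAG13, and below both, 0.341% and 0.347%, with 0.3 nM. Then came 0.376% and 0.341% with 1 nM, 0.402% and 0.383% with 3 nM, 0.368% and 0.439% with 10 nM, and 0.398% and 0.396% with 100 nM. From 1 nM upward the libraries overlapped those of 0 nM. Neat1 stood at 130 and 116 unscaled CPM without dTAG13, 121 and 105 with 0.3 nM, 121 and 102 with 1 nM, and 107 and 137 with 3 nM. With 10 nM the libraries had 113 and 112 unscaled CPM, and with 100 nM 147 each, the highest of the 12.

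Whether a share followed the dose was asked first of the shares themselves, with the doses in order from 0 to 5 and two-sided permutation tests (100000 permutations) adjusted over the 6 RNAs. The share of Terc rose with the order (Pearson's r = 0.73, adjusted permutation p = 0.0407, and Spearman's rho = 0.75, adjusted permutation p = 0.0458, raw 0.00678 and 0.00763). The r was 0.61 without the 0 nM pair and 0.82 without the 100 nM pair, the libraries farthest from the middle of the order. In the 8 libraries of 0, 1, 10 and 100 nM, which the labels number in a run of their own, the r of Terc was 0.78 (exact permutation p = 0.0198, adjusted 0.0857). The adjusted p of r was over 0.05 on the scale of log10(dose + 0.1) (0.101) and without any 1 of 10 libraries (0.0503 to 0.103, with r from 0.65 to 0.75). It stayed under 0.05 without 3 nM replicate 1 or 100 nM replicate 2. With the counts outside Rn45s as denominator the r was 0.80 (adjusted permutation p = 0.00835), and with the counts outside all 6 RNAs 0.79 (adjusted permutation p = 0.0141).

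For Rpph1 the r was -0.44 (adjusted permutation p = 0.255) and rho -0.61 (adjusted permutation p = 0.124, raw 0.0414). It was -0.77 within the 8 libraries of one numbering (exact permutation p = 0.0286, adjusted 0.0857), -0.49 without the 0 nM pair and -0.21 without the 100 nM pair. Without 3 nM replicate 1 alone it was -0.75 (adjusted permutation p = 0.0286). For Rn45s the r was -0.16 (adjusted permutation p = 0.627) and rho -0.10 (adjusted permutation p = 0.771). For Rmrp, Malat1 and Neat1 the r was 0.41, 0.39 and 0.42 (adjusted permutation p = 0.255 each), with rho of 0.40, 0.35 and 0.30 (adjusted permutation p = 0.395, 0.395 and 0.427). Without the 0 nM pair, r was 0.18, 0.72 and 0.60 for these 3, and without the 100 nM pair 0.26, 0.31 and -0.17. The sign of r for Neat1 thus changed without its 100 nM libraries. Within the 8 libraries of one numbering the r of Rn45s, Rmrp, Malat1 and Neat1 was -0.21, 0.62, 0.21 and 0.42.

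A share falls when another RNA takes more, so each RNA was next compared after TMM scaling, which sets library sizes from the bulk of genes, in a fit over all 11378 tested genes (mean of at least 1 RPKM). Genes were called at an adjusted p under 0.05 in the quasi-likelihood test of edgeR, adjusted by the Benjamini-Hochberg method. At 0.3 nM 0 of the 6 RNAs were called, against 0.0703% of all tested genes, and 1 of them (Malat1) had an unadjusted p under 0.05. At 1 nM 0 were called, against 2.38% of tested genes, and 2 (Malat1 and Terc) had an unadjusted p under 0.05. At both doses 0 were called by the likelihood ratio test and 0 by DESeq2. Terc was called at 3 nM and at 10 nM, 1 of 6 each, beside 9.53% and 17.7% of tested genes. At 100 nM 2 of 6 were called, Terc higher and Rpph1 lower, beside 23.4%. The dose comparisons share the 0 nM libraries.

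In a test of the 5 doses together 4 of 6 were called (Terc, Rpph1, Malat1 and Neat1), beside 21.3% of tested genes, and along the dose order 2 of 6 (Terc rising, Rpph1 falling), beside 29.3%. None of the 6 RNAs passed a fold change of 1.5 at any dose. The libraries of 0.3 and 3 nM were also compared with the value interpolated from the doses on either side, since the labels number them apart. Of the 11378 tested genes 0 (0%) were called, members included, by edgeR's quasi-likelihood test, by the likelihood ratio test or by DESeq2, and 414 genes but 0 of the 6 RNAs had an unadjusted p under 0.05.

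**Figure D2:**
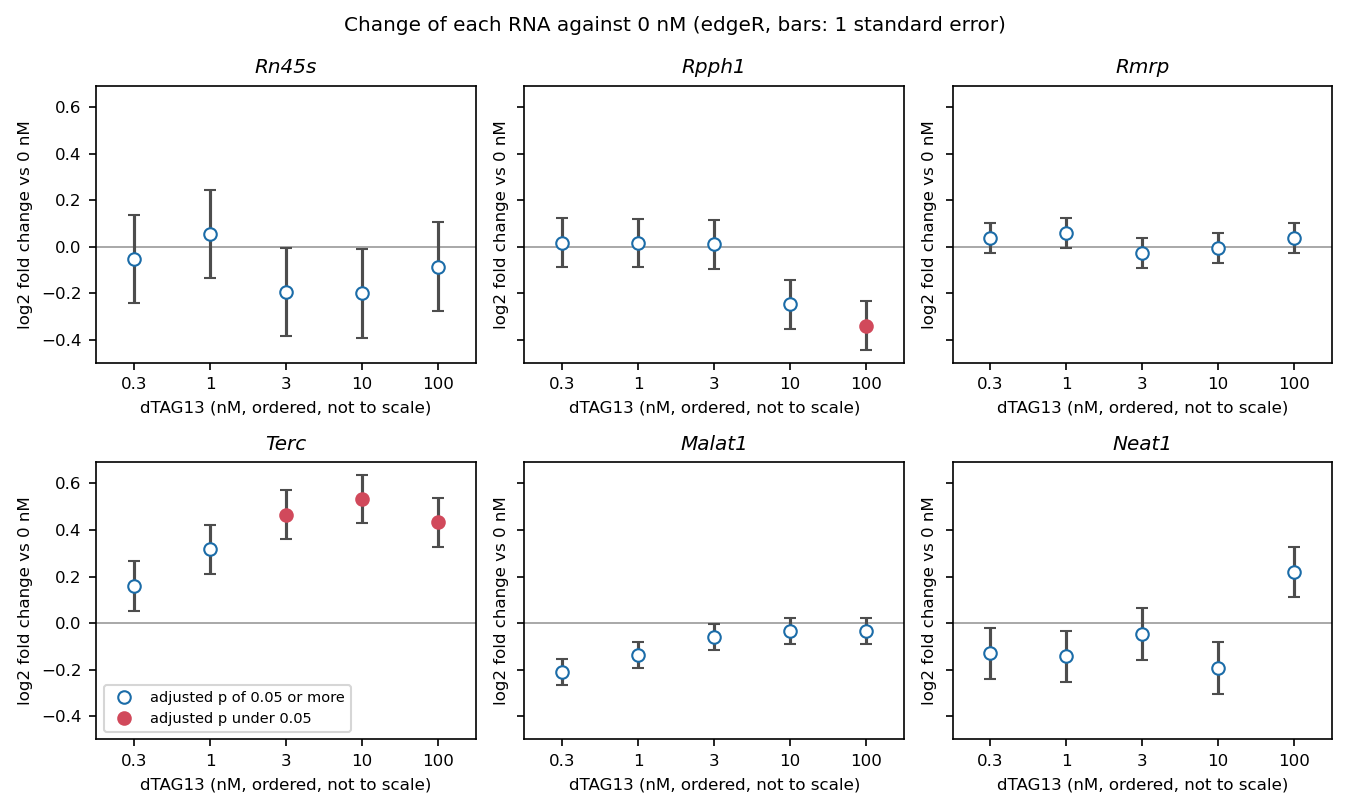
Log2 fold change of each RNA against 0 nM (y axis) at each dTAG13 dose in order (x axis, not to scale), from edgeR after TMM scaling; bars are 1 standard error and filled points have an adjusted p under 0.05. Terc is filled from 3 nM upward, at 0.47, 0.53 and 0.43, and Rpph1 at 100 nM only, at -0.34.

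Terc was 95.5 ± 17.9 CPM at 0 nM and 129 ± 9.50 CPM at 100 nM (SD, n = 2 each), after TMM scaling. Against 0 nM, its log2 fold change was 0.16 (standard error 0.11) at 0.3 nM and 0.32 (standard error 0.10, adjusted p = 0.132 from the edgeR fit) at 1 nM. Terc rose by 0.47 (standard error 0.11) at 3 nM, 0.53 (standard error 0.10) at 10 nM and 0.43 (standard error 0.10) at 100 nM, with adjusted p = 0.00463, 0.000562 and 0.00298 from the same test. At 10 nM it was 138 ± 5.15 CPM, and the difference between 10 and 100 nM was not tested. Along the order the slope was 0.097 log2 units per dose step (standard error 0.020, adjusted p = 0.000584), 1.40-fold over the whole range.

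The call at 10 nM held with each library left out in turn (log2 fold changes of 0.35 to 0.74, adjusted p of 7.08e-05 to 0.0420), and so did that of the slope, with an adjusted p of 4.4e-05 to 0.00528 over all alternatives run. The call at 3 nM was lost without 0 nM replicate 1 (0.29, adjusted p = 0.163) and without 3 nM replicate 1 (0.33, adjusted p = 0.0836). At 100 nM it was lost without 0 nM replicate 1 (0.25, adjusted p = 0.131) and without 100 nM replicate 1 (0.36, adjusted p = 0.0706). Without 0 nM replicate 2, Terc was also called at 1 nM (0.52, adjusted p = 0.0358). The number of genes with a count was also highest at the top doses, and its part in the rise of Terc was not tested.

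Of 8 genes for telomerase and H/ACA assembly tested, 1 rose and 0 fell at 100 nM, with a median log2 fold change of 0.16. Of all 11378 tested genes 10.0% rose and 13.3% fell, with a median of -0.00055, so the count for these 8 is near the share of all genes. The one that rose was Naf1, an assembly factor of H/ACA particles (0.27, standard error 0.096, adjusted p = 0.0426 from edgeR). The 3 tested genes whose levels were most like those of Terc over the 12 libraries were 4933404O12Rik (r = 0.94), Psph (r = 0.93), an enzyme of serine synthesis, and Bmi1 (r = 0.92), a Polycomb subunit. All 3 were also called higher at 100 nM, which partly follows from picking them for likeness to Terc in the same libraries. Their log2 fold changes were 1.13, 0.48 and 1.10 (adjusted p = 0.0152, 0.0286 and 9.4e-06 from edgeR), and 4933404O12Rik had a mean of only 28.2 counts.

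Rpph1 was 27952 ± 1655 CPM at 0 nM and 22101 ± 1802 CPM at 100 nM (SD, n = 2 each). At 0.3, 1 and 3 nM its log2 fold change was 0.02, 0.02 and 0.01, and at 10 nM -0.25 (standard error 0.10, adjusted p = 0.109 in the edgeR fit). At 100 nM Rpph1 fell by 0.34 (standard error 0.10, adjusted p = 0.0193), and along the order by 0.071 log2 units per step (standard error 0.021, adjusted p = 0.0122), a fall to 0.781 of the level at 0 nM over the range. The near-zero value at 3 nM is a mean of opposite libraries, being -0.32 without replicate 1 and 0.29 without replicate 2, both called (adjusted p = 0.00171 and 0.00429 from edgeR). Without either of these libraries Rpph1 was also called lower at 10 nM (adjusted p = 0.00110 and 0.000797).

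The calls of Rpph1 depended on several choices. The call at 100 nM was lost with DESeq2 (adjusted p = 0.282), without normalization factors (0.111), without 0 nM replicate 2 (-0.28, adjusted p = 0.162) and without 100 nM replicate 2 (-0.26, adjusted p = 0.230). That of the slope was lost with DESeq2 (0.0791), without factors (0.0761) and without 100 nM replicate 2 (adjusted p = 0.0756). Over the 5 doses together it was lost with DESeq2 (0.679), without factors (0.185), without 0.3 nM replicate 2 (0.0566) and without either library of 100 nM (0.0760 and 0.238). The sign at 10 nM, at 100 nM and along the order was negative under every alternative run.

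Of the 11 protein subunits of RNase P and RNase MRP, 1 rose, 1 fell and 9 were not called at 100 nM, with a median log2 fold change of 0.11, shares near the 10.0% and 13.3% of all tested genes that rose and fell. Rpp40 rose by 0.65 (standard error 0.19, adjusted p = 0.0130 from edgeR) and Pop4 fell by 0.32 (standard error 0.11, adjusted p = 0.0430); both belong to the protein shell that the 2 RNAs share. The 3 genes most like Rpph1 across libraries were Hmgn1 (r = 0.94), a nucleosome-binding protein, the histone gene Hist4h4 (r = 0.94) and the ribosomal protein gene Rpl13a (r = 0.94). Of these Hmgn1 was called lower at 100 nM (-0.23, adjusted p = 0.0264 from edgeR), whereas Hist4h4 (-0.16) and Rpl13a (-0.12) were not called. These genes, too, were picked for likeness in the same libraries. Parp2, 175 bases from Rpph1 on the other strand and also named with its values known, had a log2 fold change of -0.01 at 100 nM (standard error 0.13).

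Rmrp, the other RNA of this pair, had log2 fold changes between -0.03 and 0.06 at the 5 doses, with standard errors of 0.064. At 100 nM it was 0.04 (adjusted p = 0.723 from edgeR), and the slope was -0.00068 per step (adjusted p = 0.973). Rpph1 and Rmrp thus had different values at 100 nM, -0.34 and 0.04, and the difference between them was not tested.

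Rn45s had log2 fold changes of -0.05, 0.05, -0.19, -0.20 and -0.09 from 0.3 to 100 nM, with standard errors of 0.19 each, and an adjusted p of 0.539 or more in each comparison with edgeR, so that no change at a single dose was detectable beside this spread. In the test of the 5 doses together Rn45s was not called, but it was once 3 nM replicate 2, a library high in Rn45s, was left out (adjusted p = 0.00167). Its slope was -0.032 per step (standard error 0.034, adjusted p = 0.531). Among the alternatives run, a call was obtained at 100 nM only when all genes with at least 1 count were fitted (-0.17, adjusted p = 6.2e-27), and in that fit Rn45s was also called over the 5 doses together (adjusted p = 4.5e-143). These p-values cannot stand for the spread between libraries. The SD of log2 CPM for Rn45s was 0.38 within conditions and 0.13 between condition means. In the same fit Rpph1 had an adjusted p of 2.6e-130 over the 5 doses, and the reason was not tested.

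Among genes of the RNA polymerase I machinery 1 of 15 rose and 0 fell at 100 nM (median log2 fold change 0.08). It was Polr1a, the largest subunit (0.20, standard error 0.055, adjusted p = 0.00785 from edgeR). Of 15 genes for processing of the ribosomal precursor 6 rose and 1 fell (median 0.11), led by Rrp9 (0.35, adjusted p = 0.00841), a protein of the U3 snoRNP, Wdr12 (0.28, adjusted p = 0.0202), of the PeBoW complex, and Nolc1 (0.24, adjusted p = 0.00377), a nucleolar chaperone of snoRNPs. Of all tested genes, 10.0% rose and 13.3% fell.

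For the machinery of RNA polymerase III, which makes Rpph1 and Rmrp, 7 of 28 genes rose and 1 fell at 100 nM (median 0.06), which is 25% and 3.57%, beside 10.0% and 13.3% of all tested genes. The largest changes were a fall of Polr3gl (-1.97, standard error 0.45, adjusted p = 0.00165 from edgeR) from 4.33 ± 0.663 to 1.09 ± 0.0713 RPKM, and rises of Polr3d (0.68, adjusted p = 3.3e-06) and Snapc5 (0.58, adjusted p = 0.0468). Polr3gl had only 9 to 40 counts in a library. Polr3gl and Polr3d encode subunits of the polymerase, and Snapc5 one of the complex that binds promoters of the Rpph1 and Rmrp kind. Of 5 other structural RNA genes tested, 0 rose and 1 fell, the vault RNA Vaultrc5 (-0.90, standard error 0.12, adjusted p = 1.8e-06 from edgeR), also a polymerase III product.

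Malat1 was 4018 ± 401 CPM without dTAG13, 3477 ± 48.3 with 0.3 nM, 3654 ± 104 with 1 nM and 3928 ± 15.8 with 100 nM (SD, n = 2 each). Relative to 0 nM it had a log2 fold change of -0.21 with 0.3 nM (standard error 0.056, adjusted p = 0.253 from the edgeR fit, unadjusted 0.00111), -0.14 at 1 nM (standard error 0.056, adjusted p = 0.262), -0.06 at 3 nM, -0.03 at 10 nM and -0.03 at 100 nM (adjusted p = 0.737). The lowest level was thus at the lowest dose, and the slope was 0.012 (adjusted p = 0.533). In the test of the 5 doses together Malat1 had an adjusted p of 0.0490.

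Neat1 had log2 fold changes of -0.13, -0.14, -0.05 and -0.19 from 0.3 to 10 nM and of 0.22 at 100 nM (standard error 0.11, adjusted p = 0.150 in the edgeR fit). It was 125 ± 13.5 CPM at 0 nM, 110 ± 6.33 at 10 nM and 146 ± 1.23 at 100 nM (SD, n = 2 each). Its adjusted p over the 5 doses together was 0.0497. Both of these calls over the doses lay next to the threshold. The call of Malat1 was lost with the likelihood ratio test (0.242), without normalization factors (0.225) and with a replicate block (0.0660). The call of Neat1 was lost with DESeq2 (0.555), with DESeq2 size factors (0.0538), with a replicate block (0.0648) and with Rn45s left out of the library sizes, an alternative added after the data were seen (0.0509). Leaving out libraries, that of Malat1 was lost without 0 nM replicate 1 (0.0654) and without either library of 0.3 nM (0.238 and 0.156), of 1 nM (0.0747 and 0.106) or of 100 nM (0.112 and 0.117). That of Neat1 was lost without 0 nM replicate 1 (0.0570), 0.3 nM replicate 2 (0.0802), either library of 1 nM (0.0585 and 0.0849), 10 nM replicate 2 (0.0891) and either library of 100 nM (0.286 and 0.319).

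Of 12 paraspeckle proteins 0 were called at 100 nM by edgeR (median log2 fold change -0.05). The largest change was that of Sfpq, a core paraspeckle protein (-0.15, adjusted p = 0.0592). Along the order 2 of the 12 fell, Sfpq and Tardbp (adjusted p = 0.0325 and 0.0159 from edgeR). Of all 11378 tested genes 1802 fell along the order, so this count is near the share of all genes. Of the 4 listed genes for MALAT1 and NEAT1 processing 0 were called, with Srsf2 the farthest from 0 (-0.14, adjusted p = 0.138). Among 15 other long noncoding RNA genes tested, 0 rose and 3 fell at 100 nM (median -0.12), that is, 20% lower, beside 13.3% of all tested genes that fell and 10.0% that rose. They were Firre (-1.25, adjusted p = 5e-08 from edgeR), Meg3 (-1.17, adjusted p = 7.5e-05) and Tug1 (-0.46, adjusted p = 0.00012). Of 7 genes for the proteins of the 7SK particle and P-TEFb, partners of the RNA not analysed here, 0 rose and 1 fell: Larp7, which binds the 3′ end of 7SK (-0.40, standard error 0.089, adjusted p = 0.00134).

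The 6 RNAs also differed in how much they varied between the 2 libraries of a condition. The SD of log2 CPM within conditions was 0.38 for Rn45s, 0.20 for Rpph1, 0.18 for Neat1, 0.16 for Terc, 0.10 for Rmrp and 0.077 for Malat1. Over the 2300 genes that averaged 500 counts or more the median was 0.068 and the 95th percentile 0.13. Rn45s, Rpph1, Neat1 and Terc lay at the 99.2, 98.3, 98.1 and 97.7 percentile of these genes, Rmrp at 86.6 and Malat1 at 63.4. The SD of the 6 condition means was 0.33 times the SD within conditions for Rn45s, 0.79 times for Rpph1 and 1.32 times for Terc.

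**Figure D3:**
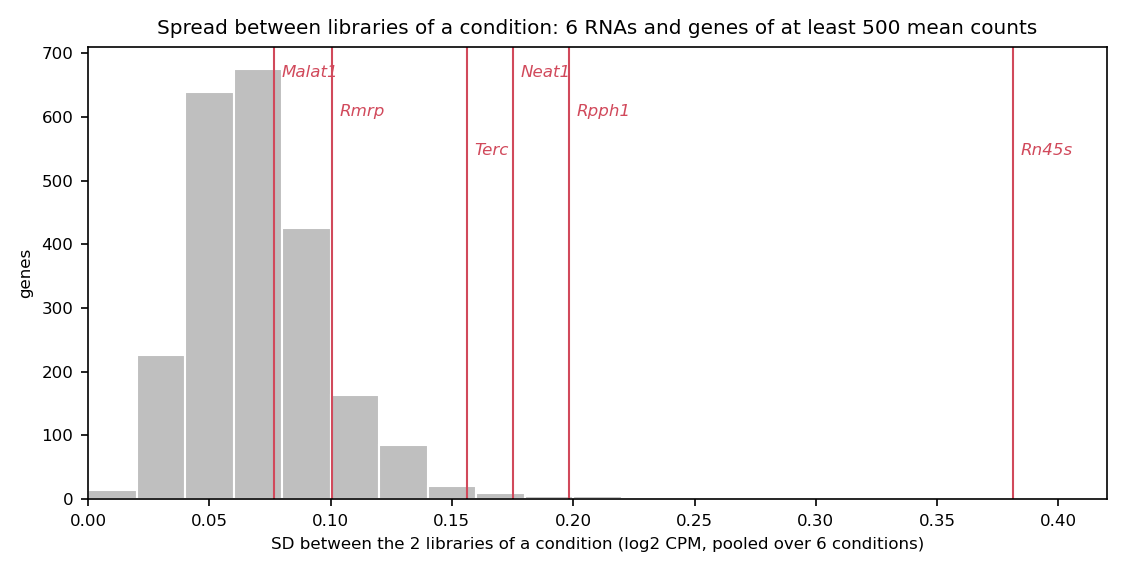
Number of genes (y axis) by the SD of log2 CPM between the 2 libraries of a condition, pooled over 6 conditions (x axis), for 2300 genes with a mean of at least 500 counts (grey bars), with red lines for the 6 RNAs; 18 genes beyond 0.4 are not drawn. Rn45s at 0.38 lies beyond nearly all of these genes, and Malat1 at 0.077 among the bulk.

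Some of the 6 RNAs varied together. Levels were set as log2 counts per 1000000 counts outside the 6, and the 15 pairs were tested by two-sided permutation tests (100000 permutations). Rn45s and Rmrp had r = 0.90 (adjusted permutation p = 0.00315) and rho = 0.73 (adjusted permutation p = 0.128, raw 0.00854). With the 2 libraries farthest from the Rn45s median left out r was 0.65, and it was 0.80 within the 8 libraries of one numbering. In 6 of 6 conditions the library with more Rn45s was also the one with more Rmrp. The library with more Rn45s had less Terc in 6 of 6 conditions. Over all 12 libraries, however, r was -0.56 (adjusted permutation p = 0.298, rho = -0.53) and -0.20 without the 2 farthest. For Rmrp and Terc the order within conditions was also opposite in 6 of 6 (r = -0.25, adjusted permutation p = 0.643). These counts of conditions were picked from the 15 pairs and were not tested.

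Over all pairs but Rn45s and Rmrp the adjusted permutation p of r was 0.136 or more, lowest for Rpph1 and Neat1 (r = -0.67, rho = -0.62). Rn45s and Rpph1 had r = -0.39 (adjusted permutation p = 0.347), and 0.23 in the 8 libraries of one numbering, with the opposite library higher in 4 of 6 conditions. The neighbors Malat1 and Neat1 had r = 0.41 (adjusted permutation p = 0.338, rho = 0.38). Rn45s and Rmrp also followed the total count of a library, with r = 0.84 and 0.77 (adjusted permutation p = 0.00732 and 0.0103, over 6 relations) and rho = 0.61 and 0.50 (adjusted permutation p = 0.241 and 0.297). Without the 2 libraries with the most extreme totals these r were 0.37 and 0.21, so they rested on those libraries. Rn45s is itself part of the total.

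**Figure D4:**
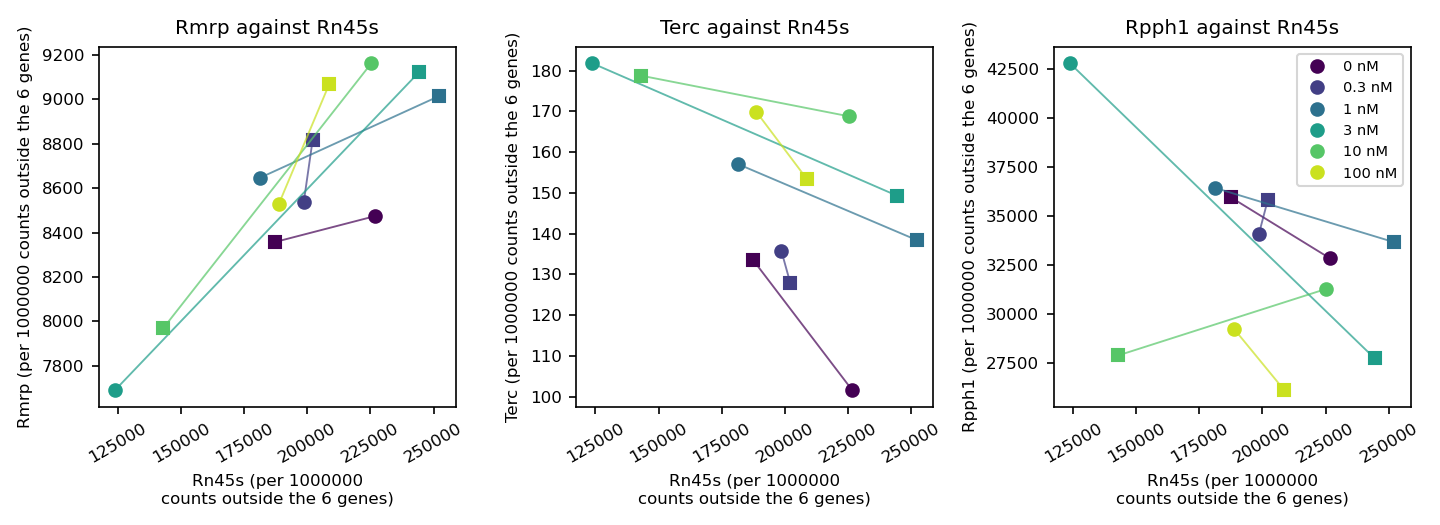
Rmrp, Terc and Rpph1 (y axes) against Rn45s (x axis), both per 1000000 counts outside the 6 RNAs, in each of 12 libraries; colors are doses, circles replicate 1, squares replicate 2, and lines join the 2 libraries of a dose. Every line rises in the Rmrp panel and falls in the Terc panel; axes do not start at 0.

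The genes most like Rn45s over the 12 libraries were Lars2 (r = 0.96), a mitochondrial leucyl-tRNA synthetase, Rmrp (r = 0.93) and the ribosomal protein gene Rpl41 (r = 0.90), on log2 CPM after TMM scaling. Lars2 had the fourth most counts of all genes, with 0.416% in 3 nM replicate 1, which was also lowest in Rn45s, and 0.765% in 3 nM replicate 2. The library with the higher share of Rn45s had the higher share of Lars2 in 4 of 6 conditions. Those most like Rmrp were Rn45s, Lars2 (r = 0.90) and the small Cajal body RNA Scarna13 (r = 0.89). Malat1 was most like Immp1l, Slc30a7 and Mipep (r = 0.88, 0.86 and 0.85), and Neat1 most like Eid3, Smad5 and Gclc (r = 0.87, 0.87 and 0.86). None of these 6 genes was called at 100 nM. As the genes most alike among 11378, they have a high r by selection.

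Of the 6 RNAs, 1 (Malat1) had a promoter in the RefSeq table for GRCm38, from 250 bases before to 50 after its start. It held none of 4 short motifs on either strand: TATAA, which 24.9% of 32851 promoters of this length held, ATTTGCAT (1.74%), CCAAT (37.4%) and GGGCGG (35.7%).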

How the data were processed

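RNA-seq libraries were made with the SMART-Seq Stranded kit, whose random priming also copies RNAs without a poly(A) tail. The paper's methods do not say whether ribosomal RNA was removed. The share of Rn45s in the counts need therefore not be its share in the cells. The authors trimmed reads with Trim Galore, aligned them to mm10 with HISAT2 and counted read pairs on exons per gene symbol with featureCounts 2.0.1. The deposited values are raw counts of pairs with both ends aligned, with multi-mapped pairs left out, no strand setting and no normalization, together with exon lengths. Totals were 4663484 to 6375582 per library.

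From these, shares were taken with 95% Wilson intervals (scipy 1.17.1). Genes that averaged 1 RPKM or more (11378) were fitted in R 4.3.3 with edgeR 4.0.16 (TMM, 6 conditions together, quasi-likelihood test, Benjamini-Hochberg adjustment over all tested genes, threshold 0.05). The steps were tested on simulated data. Lists of partner genes were described by counts, and named genes are the members, up to 3 called genes per list with the largest change at 100 nM (if none, the largest change), and the 3 genes most like each member. Members and lists were chosen with earlier results of these data known. Alternatives covered the test, scaling, filter, fold minimum, replicate block, dose scale and each library left out. Labels gave the groups, and the 2 numberings were read from library numbers in them.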

Additional observations from a re-analysis of the deposited data

How the results depend on the processing

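The number of the 6 RNAs called was taken again under each alternative. With a fold change over 1.5 it was 0 at 3, 10 and 100 nM and along the order. With all genes of at least 1 count it was 1, 3, 2, 3 and 4 from 0.3 to 100 nM and 1 for the numbering, with log2 values of -0.027 for Rpph1 at 3 nM, -0.042 for Rmrp at 100 nM and -0.0041 for the slope of Malat1, opposite in sign to the reported ones. With DESeq2 it was 1 at 100 nM, 2 over the doses together and 1 along the order, and so it was without normalization factors (1, 2 and 1), which also turned Malat1 to 0.035 at 10 nM and 0.012 at 100 nM. A pairwise fit called 2 at 10 nM. On log10(dose + 0.1), 0 shares followed the dose in place of 1. The fit of all genes with at least 1 count called 36 of 23204 genes at 0.3 nM. Its p-values for Rn45s do not stand for the spread between libraries. DESeq2 called 1797 of 11378 genes at 100 nM, 1743 over the doses together and 3177 along the order. For the other alternatives and the fits without 1 library, no share of all genes is given. Those counts do not set the 6 RNAs apart from other genes. The cause of the differences between alternatives was not tested.

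Over 15 pairs of conditions the deviations of same-numbered libraries correlated between -0.119 and 0.0977, with 0 over 0.1 and 2 under -0.1. These correlations run over all tested genes, counting noise included. They cannot decide whether same-numbered libraries were paired. With a replicate block, 2 in place of 4 RNAs were called over the doses together, and Rpph1 at 3 nM was -0.0080.

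The slope of Rmrp, near 0, changed sign to 0.00094 (DESeq2 and DESeq2 size factors), 0.0030 (upper quartile), 0.011 (no factors), 0.0055 (counts outside the 6 as library size), 0.0028 (8 libraries of one numbering), 0.0015 (log10 dose) and 0.00089 (Rn45s left out of library sizes, added after the data were seen). That of Malat1 was -0.00072 in the 8 libraries.

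Without 1 library at a time, 0 to 1 RNAs were called at 1 nM, 0 to 3 at 3 nM, 1 to 2 at 10 nM, 1 to 3 at 100 nM, 1 to 5 over the doses, 1 to 3 along the order and 0 to 2 by share. Over the same fits, Rpph1 ran from -0.042 to 0.079 at 0.3 nM, -0.044 to 0.077 at 1 nM and -0.32 to 0.29 at 3 nM, Terc from -0.019 to 0.37 at 0.3 nM, and Malat1 from -0.16 to 0.048 at 3 nM, -0.13 to 0.071 at 10 nM and -0.13 to 0.073 at 100 nM. At 100 nM Rn45s ran from -0.22 to 0.064 and Rmrp from -0.0043 to 0.081, whose slope ran from -0.0061 to 0.0066. Neat1 was called at 100 nM in the pairwise fit (adjusted p = 0.0263) and without 3 nM replicate 1 (0.0486), and the slope of Malat1 without 0 nM replicate 1 (0.033, adjusted p = 0.0234). With 2 libraries per condition and counts of 484 and 668 for Terc at 0 nM, both the number of libraries and depth limit what could be detected. Among all alternative values of single RNAs, 555 kept their direction and side of the threshold, 15 came past it, 22 lost it and 34 changed sign.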
